A study of Mus musculus with 6 samples.

Results

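Chymotrypsins and pancreatic elastases are serine proteases of the pancreatic juice, and 6 genes of these families were followed in whole pancreas of mice at postnatal day 7. The 6 genes were Ctrl, Ctrb1, Ctrc, Cela1, Cela2a and Cela3b, taken by symbol from the 23337 gene symbols measured in every library, and all 6 passed the filter on low counts. The mutant group (n = 3) carried Ptf1a cre/+ together with the transgene CAG-loxP-STOP-loxP-Prox1-LacZ, in which Cre, made where Ptf1a is active, removes a stop cassette so that the CAG promoter drives Prox1 and LacZ. The control group (n = 3) had the genotype Ptf1a cre/+, so both groups carried the Cre allele at Ptf1a, and the strain label was NMRI for both. Because Ptf1a is active in early pancreatic progenitors as well as in acinar cells, Cre at this gene also acts in the forebears of duct and endocrine cells. RNA was sequenced from whole organs, so a lower level can mean fewer cells of a type or less RNA per cell, which cannot be told apart. The design text speaks of control pools but single mutant pancreata, while the extraction protocol names individual organs, and neither litters nor days are given. The p-values therefore measure only the spread between these 6 samples, and a difference in pooling cannot be told apart from genotype.

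Acinar cells make these proteases as inactive zymogens, store them in granules and release them into the duct, and trypsin activates them in the gut. Chymotrypsins cut proteins after large hydrophobic residues, whereas most elastases cut after smaller ones. In acinar cells the genes for digestive enzymes are driven largely by PTF1, a complex of Ptf1a, a partner of the E-protein type and Rbpjl, which binds a paired site made of an E-box (CANNTG) and a TC-box (TTTCCC).

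The promoters of Ctrl and Ctrb1 are shown because Ctrl fell furthest of the 6 genes. Ctrb1, also a chymotrypsin gene on chromosome 8, had nearly the same mean in both groups after scaling of the libraries. The sequences are the 250 bases upstream of each annotated start, from RefSeq on GRCm38.p6, of the C57BL/6J reference strain and not of NMRI. Both lie on the minus strand and read 5′ to 3′ towards the gene, with CANNTG and TTTCCC on either strand in capitals.
Ctrl promoter: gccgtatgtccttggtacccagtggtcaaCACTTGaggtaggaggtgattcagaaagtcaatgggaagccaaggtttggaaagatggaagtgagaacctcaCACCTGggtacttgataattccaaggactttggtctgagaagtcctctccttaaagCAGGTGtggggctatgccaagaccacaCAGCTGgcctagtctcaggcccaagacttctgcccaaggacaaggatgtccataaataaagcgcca
Ctrb1 promoter: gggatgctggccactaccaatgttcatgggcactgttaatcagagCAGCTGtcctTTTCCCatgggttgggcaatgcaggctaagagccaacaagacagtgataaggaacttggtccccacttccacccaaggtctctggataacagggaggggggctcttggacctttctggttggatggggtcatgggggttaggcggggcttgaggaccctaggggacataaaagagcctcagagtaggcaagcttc
The Ctrl window is chr8:105933863-105934112 and the Ctrb1 window is chr8:111691011-111691260, and neither holds an annotated exon. The Ctrl window held CANNTG 4 times, the form CACCTG, which is included in CANNTG, 2 times, and TTTCCC 0 times. The Ctrb1 window held 1 CANNTG and 1 TTTCCC, with 4 bases between them, at positions -205 to -190 from the start.
Ctrb1 paired match: CAGCTGtcctTTTCCC
Cela1 paired match: CACCTGcgctTTTCCC
The Cela1 match shown, at -109 to -94, also had 4 bases between its parts and was chosen for that, since the Cela1 window held 2 further pairs, with gaps of 21 and 23 bases. A CANNTG and a TTTCCC at most 25 bases apart occurred in the windows of Ctrb1 and Cela1, and in none of those of Ctrl, Cela2a and Cela3b. The windows of Cela1, Cela2a and Cela3b, unlike those of Ctrl and Ctrb1, hold annotated exon bases of their own genes, so they are not wholly upstream of every annotated start. Over all 32817 RefSeq promoters of this length, 66.2% held CANNTG, 17.2% CACCTG, 21.9% TTTCCC and 4.60% the paired arrangement. AGGTCA, a core motif of nuclear receptors, was found 2 times and TATAAA 1 time in the Cela1 window and neither in the other 4, against 14.0% and 12.4% of all promoters. These are matches of letters on both strands and describe no binding.

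Total counts were 9957737, 7729161 and 9933559 in mutant libraries 1 to 3, and 7304727, 9522106 and 10773223 in control libraries 1 to 3. Prox1, the gene carried by the transgene, was at 25.5, 31.3 and 30.9 CPM (counts scaled to 1000000 per library) in mutants and 10.8, 7.84 and 9.13 CPM in controls, so the labels matched the data (log2 fold change 1.67 ± 0.15 SE, edgeR adjusted p = 0.000239). Control 1 stood apart as the only library with many Xist counts, 7110 against 1 to 4 in the other 5, so it differs from them in sex-linked RNA. Acinar markers were abundant in all libraries, summing to 115404 to 133370 CPM in mutants and 145875 to 170977 CPM in controls. In mutants against controls, 6 duct markers summed to 324 to 406 against 472 to 497 CPM, 6 endocrine markers to 3038 to 3342 against 2974 to 4842 CPM, and 5 macrophage markers to 195 to 222 against 123 to 157 CPM. Most of the duct sum was Spp1, with means of 270 against 369 CPM. Of the duct markers 0 were called, while 3 were lower and 1, Cftr, was higher without overlap. Of the macrophage markers 2 were called higher (C1qc and Mrc1), and of the acinar markers 1 was called lower (Cel). Adipocyte markers summed to 39.3 to 55.2 CPM in mutants and 70.1 to 123 CPM in controls. Most of that sum was Fabp4, with means of 44.3 CPM in mutants against 83.0 CPM in controls. Of 4 tested, 1 was called lower (Fabp4), and the median log2 fold change was -2.72. In mutants against controls, stellate markers summed to 3282 to 4679 against 3065 to 5042 CPM, mast cell markers to 47.5 to 72.1 against 54.0 to 75.3 CPM, and neutrophil markers to 11.3 to 19.4 against 15.1 to 67.5 CPM. The largest part of the mast cell sum was Kit (log2 fold change -0.62), while Cma1, Cpa3 and Tpsb2 had 0.40, 0.30 and 0.66, with none of them called. Higher without overlap were 4 of 5 macrophage and 1 of 6 stellate markers. Lower without overlap were 3 of 6 acinar, 1 of 6 endocrine, 1 of 4 mast cell, 1 of 4 neutrophil and 2 of 4 adipocyte markers tested. Over all genes 9.13% were higher and 9.86% lower without overlap, and 0.545% were called higher and 1.51% lower. The part of these cell types in the results below was not tested.

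Of the 6 genes, 1 fell in mutants, namely Ctrl, and 0 rose by the edgeR quasi-likelihood test at an adjusted p under 0.05. Over all 13017 genes tested, 1.51% were called lower and 0.545% higher, or 2.06% in all. With library totals alone in place of TMM, 1 member was called higher (Ctrc) and 1 lower (Ctrl), against 1.46% and 0.999% of all genes. At an unadjusted p under 0.05, 1 of the 6 was higher and 2 were lower, against 5.41% and 7.36% of all genes. DESeq2 called 0 higher and 2 lower, against 0.559% and 1.58% of the genes to which it gave an adjusted p. The CPM of mutants and controls did not overlap for 3 of the 6, with Ctrc higher and Ctrl and Cela3b lower. Over all genes such separation occurred in 9.13% in the higher and 9.86% in the lower direction. The median log2 fold change of the 6 genes was -0.13, against 0.00 over all genes.

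**Figure D1:**
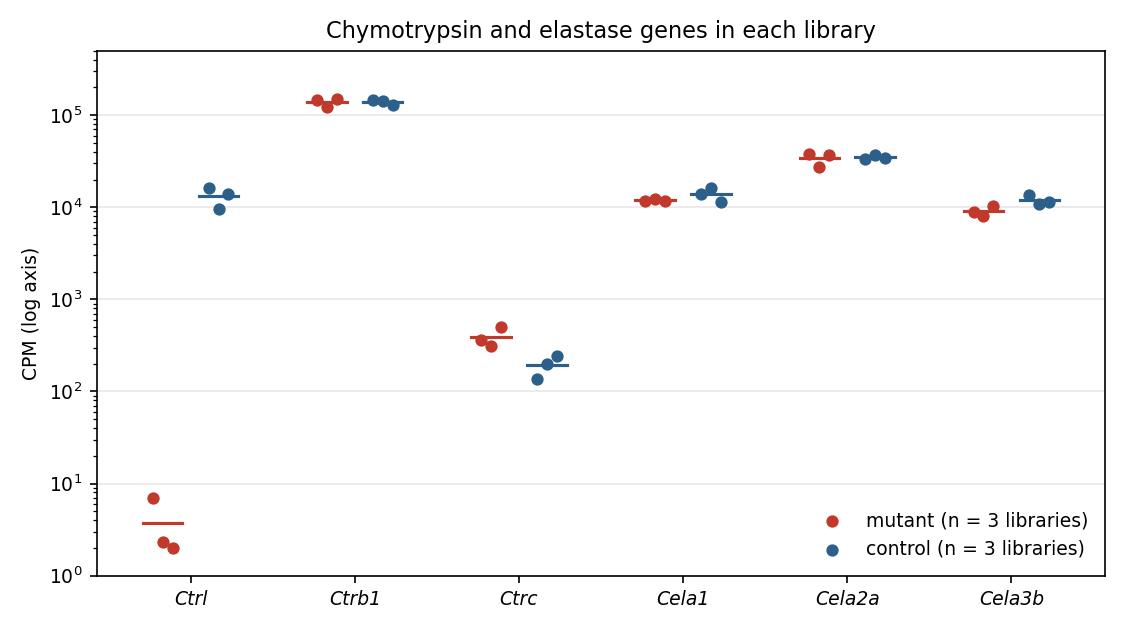
Level of each of the 6 genes in each library, in CPM on a log axis, with mutants left of controls. Points are libraries and bars are group means. Ctrl lies at 2.00 to 6.95 CPM in mutants and at 9507 to 16352 CPM in controls, while the groups of Ctrb1, Cela1 and Cela2a overlap.

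Ctrl, a chymotrypsin-like protease gene (chr8:105931994-105933862, minus strand), fell to a trace. It stood at 6.95, 2.32 and 2.00 CPM in mutants and at 16352, 9507 and 13774 CPM in controls. Every mutant library was far below every control library, and mutant 1 was the highest of the mutants. The means were 3.76 ± 2.77 CPM in mutants and 13211 ± 3457 CPM in controls (SD, n = 3 each), a 3458-fold fall (log2 fold change -11.76 ± 0.54 SE, edgeR adjusted p = 4.43e-06). In raw counts Ctrl had 73, 20 and 20 in mutants and 108748, 86046 and 143311 in controls. Ctrl thus took 0.000733%, 0.000259% and 0.000201% of all counts in mutants, with 95% Wilson intervals of 0.000583 to 0.000922%, 0.000168 to 0.000400% and 0.000130 to 0.000311%, which cover counting error only. In controls it took 1.49%, 0.904% and 1.33% of all counts. Ranked by count within a library, Ctrl moved to places 8925 to 11843 in mutants, against places 11 to 14 in controls. None of the 50-base stretches of its transcripts occurs in another gene. Over 14 alternatives the log2 fold change lay between -12.57 and -11.45 and the adjusted p between 9.12e-71 and 0.0013.

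Ctrb1, the gene of chymotrypsinogen B (chr8:111686510-111691010, minus strand), was the most abundant of the 6. Its level was 146807, 121674 and 150817 CPM in mutants and 146640, 142163 and 130163 CPM in controls. On this TMM-scaled CPM the ranges overlapped, with mutant 2 the lowest and mutant 3 the highest of the 6 libraries. As a share of all counts, Ctrb1 took 15.5%, 13.6% and 15.2% in mutants and 13.4%, 13.5% and 12.6% in controls. By that measure every mutant was above every control, and with library totals alone the log2 fold change was 0.17 (edgeR adjusted p = 0.333). The means of 139766 ± 15796 CPM in mutants and 139656 ± 8520 CPM in controls (SD, n = 3 each) gave a log2 fold change of 0.00 ± 0.14 SE (edgeR adjusted p = 0.999). Ctrb1 ranked 1 or 2 among all genes in each mutant library and 2 in each control library. At transcript level Ctrl and Ctrb1 were 66.2% identical over 850 aligned bases, and Ctrb1 also shared no 50-base stretch with another gene.

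Ctrc encodes chymotrypsin C, which in human degrades trypsinogen and so limits premature trypsin activity. Its locus (chr4:141838239-141846287, minus strand) is protein-coding in GENCODE but a transcribed pseudogene in RefSeq on the C57BL/6J reference. Ctrc was at 359, 309 and 502 CPM in mutants and at 138, 199 and 242 CPM in controls. Every mutant was above every control, with mutant 3 the highest and control 1 the lowest. The means were 390 ± 100.1 CPM in mutants and 193 ± 52.6 CPM in controls (SD, n = 3 each), a ratio of 2.02 that missed the threshold (log2 fold change 1.02 ± 0.22 SE, edgeR adjusted p = 0.0524). The edgeR adjusted p was 0.0233 with library totals alone, 0.0235 with no filter, 0.0458 with a filter at 5 CPM and 0.0208 without mutant 2, and up to 0.207 with another library left out. Annotated Ctrc transcripts overlap Cela2a on the same strand over 21.4% of their exon bases, and 17.7% of their 50-base stretches also occur in Cela2a, so counts of Ctrc are uncertain.

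Cela1 encodes chymotrypsin-like elastase 1 (chr15:100674422-100687920, minus strand), a gene that is silent in the human pancreas. It was at 11625, 12372 and 11789 CPM in mutants and 13987, 16345 and 11421 CPM in controls. Mutants lay close together and inside the wider control range, whose lowest value was control 3. The log2 fold change was -0.22 ± 0.16 SE (edgeR adjusted p = 0.627), from means of 11929 ± 393 and 13918 ± 2462 CPM in mutants and in controls (SD, n = 3 each).

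Cela2a encodes elastase 2A (chr4:141814954-141826005, minus strand). It was at 37669, 27437 and 37104 CPM in mutants and 33272, 37158 and 34019 CPM in controls. The groups overlapped, mutant 2 being the lowest of all and mutants 1 and 3 close to control 2. The means were 34070 ± 5751 CPM in mutants and 34816 ± 2062 CPM in controls (SD, n = 3 each), with a log2 fold change of -0.03 ± 0.16 SE (edgeR adjusted p = 0.969). Its exons overlap annotated Ctrc transcripts over 17.7% of their bases and Casp9 on the other strand over 5.5%, and 15.6% of its 50-base stretches occur in other genes. Cela2a exceeded Ctrc in every library.

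Cela3b encodes elastase 3B (chr4:137421008-137430520, minus strand). It was at 8838, 8120 and 10199 CPM in mutants and 13439, 10938 and 11295 CPM in controls. Every mutant was below every control, but mutant 3 and control 2 were close. The means were 9052 ± 1056 CPM in mutants and 11891 ± 1353 CPM in controls (SD, n = 3 each), and the difference missed the threshold (log2 fold change -0.39 ± 0.15 SE, edgeR adjusted p = 0.293). DESeq2 gave the same log2 fold change with an adjusted p of 0.0379.

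Gm13011, which RefSeq names Cela3a, lies 11217 bp from Cela3b and is 94.5% identical to it over 916 aligned bases of transcript. It is not among the 6 genes, but 19.2% of the 50-base stretches of Cela3b occur in it, so reads could be split between them. Gm13011 had 4.19, 4.87 and 55.4 CPM in mutants and 68.0, 69.3 and 79.6 CPM in controls. Mutants 1 and 2 stood far below mutant 3, which was nearer the controls. The log2 fold change was -1.74 ± 0.71 SE (edgeR adjusted p = 0.336) and became -4.00 (edgeR adjusted p = 1.04e-05) without mutant 3. Between the 6 genes themselves, transcript identity ran from 63.4% for Ctrb1 and Cela2a to 71.4% for Ctrc and Cela3b.

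Levels of different genes were compared per kilobase of the longest protein-coding transcript, which is 878 to 1108 bases long. In mutants the order by mean CPM per kilobase was Ctrb1 (159186), Cela2a (31841), Cela1 (10766), Cela3b (9776), Ctrc (410) and Ctrl (4.27). In controls it was Ctrb1 (159061), Cela2a (32539), Ctrl (15029), Cela3b (12841), Cela1 (12561) and Ctrc (203). Neighbours that overlapped in range were Cela1 (10492 to 11166) and Cela3b (8769 to 11014) in mutants, and Ctrl (10816 to 18603), Cela3b (11812 to 14513) and Cela1 (10308 to 14752) in controls. By this mean Ctrl was the lowest of the 6 in mutants, and in controls only Ctrb1 and Cela2a were above it.

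The summed output of the 6 genes stayed within the spread between libraries. Together they took 21.7%, 18.9% and 21.2% of all counts in mutants and 20.4%, 20.6% and 19.4% in controls, with mutant 2 the lowest of all and mutants 1 and 3 above every control. The means were 20.6 ± 1.45% in mutants and 20.1 ± 0.622% in controls (SD, n = 3 each), a difference of 0.492 points (two-sided exact permutation test p = 0.6, where 0.1 is the smallest p possible). On the scaled CPM the sum was 205305, 169914 and 210413 in mutants and 223829, 216309 and 200915 in controls, and the direction was the opposite, by -18473 CPM (exact permutation p = 0.3). Without Ctrl the share was 21.7%, 18.9% and 21.2% in mutants and 18.9%, 19.7% and 18.1% in controls, a difference of 1.73 points (exact permutation p = 0.2). The 3 chymotrypsins took 15.5%, 13.6% and 15.3% in mutants and 14.9%, 14.4% and 13.9% in controls (difference 0.391 points, exact permutation p = 0.6). The 3 elastases took 6.13%, 5.34% and 5.96% in mutants and 5.53%, 6.13% and 5.48% in controls (difference 0.101 points, exact permutation p = 0.9). Both subfamilies overlapped between the groups. Counting error of these shares is at most 0.029 points on either side, far below the spread between libraries.

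**Figure D2:**
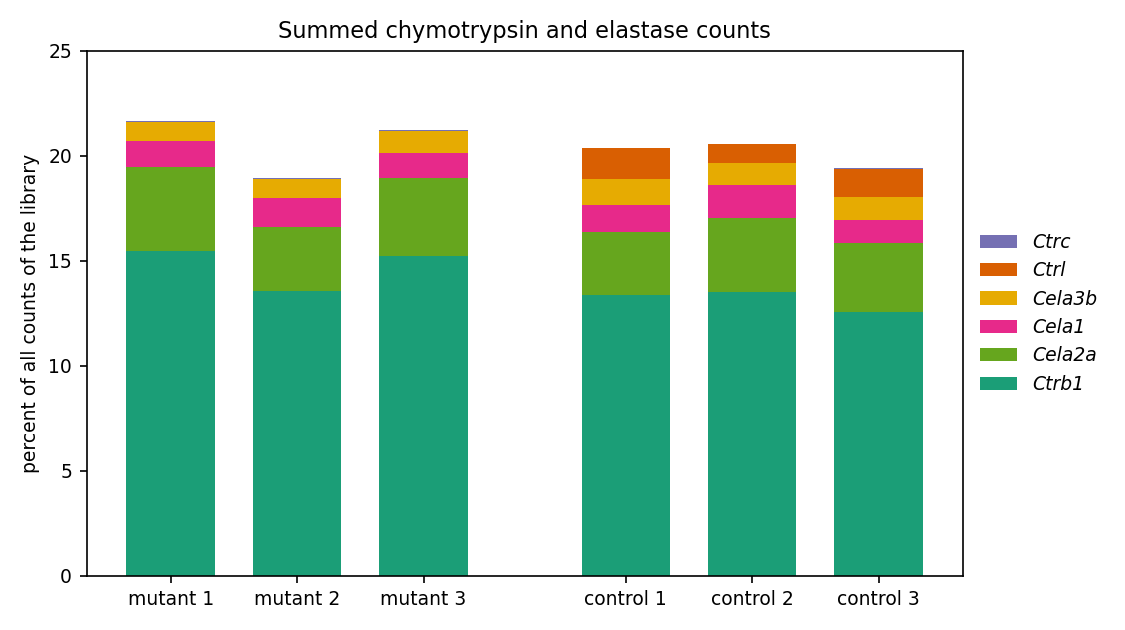
Counts of the 6 genes as a percent of all counts in each library, stacked by gene, with mutants left of controls. Ctrl is visible in controls at 0.904 to 1.49% and not in mutants, while the total lies between 18.9% and 21.7% in mutants and between 19.4% and 20.6% in controls.

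Within the family, expressed per kilobase, Ctrb1 took a larger part in mutants and Ctrl almost none. Ctrb1 made up 75.0%, 75.1% and 75.1% of the family in mutants and 68.5%, 69.1% and 67.9% in controls. The mutants lay within 0.1 points of each other and all above the controls. Ctrl made up 0.00355%, 0.00143% and 0.000993% in mutants and 7.62%, 4.62% and 7.17% in controls. The log2 ratio of each gene to the other 5 differed between mutants and controls by -11.94 for Ctrl, 0.47 for Ctrb1, 1.16 for Ctrc and -0.27 for Cela3b. Each of these 4 had an exact permutation p of 0.1, the smallest that 3 against 3 allows, and 0.15 after Benjamini-Hochberg adjustment over the 6 genes. The differences were -0.08 for Cela1 (exact permutation p = 0.5) and 0.11 for Cela2a (exact permutation p = 0.4). With 3 against 3 no gene could pass a threshold of 0.05 here. Parts of a sum are not independent, and a fall of Ctrl alone would raise the shares of the others. The mean shares of Ctrb1, Ctrc and Cela2a were higher in mutants. Those of Cela1 and Cela3b were lower, at 5.14% against 5.40% and 4.62% against 5.52% in controls.

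Other digestive enzymes moved in both directions, but more of them down. Of 28 listed symbols, among which Gm13011 and Cela3a name the same gene, 26 were in the files and 24 were tested. Of these, 4 rose and 8 fell, against 0.545% and 1.51% of all genes, and the median log2 fold change was -0.66. At an unadjusted p under 0.05, 5 were higher and 14 lower, against 5.41% and 7.36% of all genes. DESeq2 called 5 higher and 13 lower, against 0.559% and 1.58%. The groups did not overlap for 5 higher and 14 lower genes, against 9.13% and 9.86% of all genes. The summed CPM of the list was 365110 to 409671 in mutants and 451349 to 474988 in controls. The 5 with the smallest adjusted p included Gm2663 and 1810009J06Rik, trypsinogen-family genes. Gm2663 was at 306, 178 and 233 CPM in mutants and 6.01, 8.40 and 9.51 CPM in controls (log2 fold change 4.88 ± 0.24 SE, edgeR adjusted p = 5.33e-06). 1810009J06Rik was at 446, 125 and 205 CPM in mutants and 4.51, 3.09 and 1.44 CPM in controls (6.50 ± 0.55 SE, edgeR adjusted p = 0.000168). In both genes every mutant was far above every control. The trypsin genes have closely similar copies, so these counts are uncertain. Pnliprp2, a lipase, was at 239, 304 and 402 CPM in mutants and 3107, 2518 and 2536 CPM in controls (-3.11 ± 0.21 SE, edgeR adjusted p = 3.59e-05). Rnase1, a secreted ribonuclease, was at 1319, 1053 and 1583 CPM in mutants and 11836, 8370 and 9481 CPM in controls (-2.91 ± 0.20 SE, edgeR adjusted p = 4.84e-05). Klk1, a kallikrein, was at 858, 1077 and 1217 CPM in mutants and 2723, 2303 and 2623 CPM in controls (-1.28 ± 0.16 SE, edgeR adjusted p = 0.00222). In these 3 genes every mutant was below every control, and their falls were smaller than that of Ctrl. Gm5771, Prss1 and Try4, trypsinogen-family genes also called lower, fell further than these 3 but less than Ctrl. Their log2 fold changes were -8.42 ± 1.22, -6.61 ± 1.15 and -3.70 ± 0.66 SE, and in each of them control 1 was far below the other controls. Of the other enzyme genes always named, Prss2, a trypsinogen, had log2 0.08 (edgeR adjusted p = 0.927), Cpa1, a carboxypeptidase, -0.16 (0.709), and Pnlip, the main triglyceride lipase, -0.66 (0.0656). Amy2a5, an amylase with near-identical copies, was at most 0.399 CPM in any library and was not tested.

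**Figure D3:**
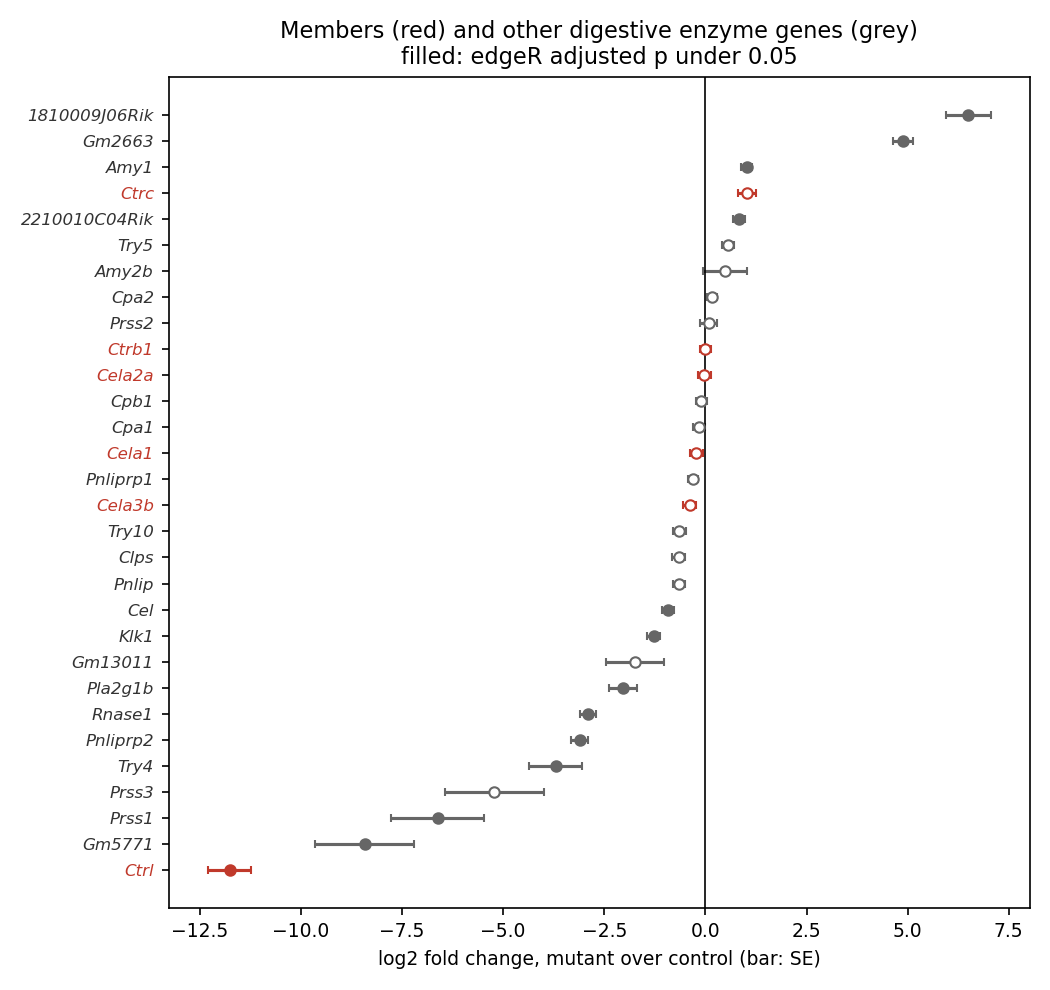
Log2 fold change of mutant over control, with its standard error, for the 6 genes and the other digestive enzyme genes tested. Ctrl at -11.76 lies beyond every other enzyme plotted, and the other 5 of the 6 genes lie between -0.39 and 1.02. Other enzymes, among them the elastase gene Gm13011 at -1.74, spread to both sides.

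The genes that act on these proteases or on their genes did not pass the edgeR test at an adjusted p under 0.05, though several acinar factors were lower without overlap. Of 9 protease inhibitors tested, 0 rose and 0 fell, with 1 higher and 1 lower at an unadjusted p under 0.05, and DESeq2 called 0 higher and 1 lower. Spink3, the trypsin inhibitor of the acinar granule, was at 1330, 1378 and 1328 CPM in mutants and 1766, 1310 and 1317 CPM in controls (log2 fold change -0.12 ± 0.15 SE, edgeR adjusted p = 0.812), with control 1 apart from the rest. Of 5 activation genes tested, among them Ctsb, whose protease can activate trypsinogen, 0 rose and 0 fell, with 0 higher and 1 lower unadjusted, and DESeq2 called none. Ctsb differed by 0.20 on the log2 scale (edgeR adjusted p = 0.491). Of 11 acinar transcription factors tested, 0 rose and 0 fell, with 0 higher and 4 lower unadjusted and 0 higher and 2 lower by DESeq2. The groups did not overlap for 6 of them, all lower, against 9.86% of all genes. Over all genes, 5.41% were higher and 7.36% lower unadjusted, and DESeq2 called 0.559% higher and 1.58% lower. Rbpjl, the acinar subunit of PTF1, was at 285, 275 and 305 CPM in mutants and 349, 461 and 439 CPM in controls (-0.53 ± 0.13 SE, edgeR adjusted p = 0.0863). Every mutant was below every control, and without control 1 the log2 fold change was -0.64 with an edgeR adjusted p of 0.0186. DESeq2 with all libraries gave Rbpjl an adjusted p of 0.000832. Ptf1a, of which both groups carry the Cre allele, was at 14.4, 15.4 and 15.0 CPM in mutants and 20.6, 21.1 and 17.7 CPM in controls (-0.40 ± 0.12 SE, edgeR adjusted p = 0.161). Here too every mutant was below every control. Nr5a2 (-0.09, edgeR adjusted p = 0.810) and Bhlha15 (-0.24, edgeR adjusted p = 0.466), factors of the acinar programme, overlapped between the groups.

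Proteases of other cell types were low, in a list of mast cell chymases, neutrophil elastase and its relatives, Cpa3, a mast cell carboxypeptidase, and Mmp12, a metalloelastase of macrophages. The 9 genes summed to 7.69 to 34.6 CPM in mutants and 13.8 to 18.2 CPM in controls. Of the 2 tested, Cma1 and Cpa3, 0 rose and 0 fell, with 0 in either direction at an unadjusted p under 0.05 and 0 by DESeq2. Cma1, mast cell chymase, was at 5.90, 13.6 and 2.30 CPM in mutants and 4.66, 4.42 and 7.02 CPM in controls (log2 fold change 0.40, edgeR adjusted p = 0.820). Cpa3 was at 7.43, 16.9 and 4.39 CPM in mutants and 7.22, 7.18 and 8.55 CPM in controls (0.30, edgeR adjusted p = 0.835), with mutant 2 the highest in both genes.

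The genes next to the 6 loci mostly kept their levels within the spread between libraries. Of 20 distinct protein-coding neighbours, 19 were in the files and 16 were tested. Of these, 0 were called higher and 1 lower, against 0.545% and 1.51% of all genes. At an unadjusted p under 0.05, 1 was higher and 2 were lower, against 5.41% and 7.36% of all genes. DESeq2 called 0 higher and 1 lower, against 0.559% and 1.58%. The called neighbour was Psmb10, an inducible subunit of the immunoproteasome, which lies 1866 bp from Ctrl on the upstream side (chr8:105935728-105938392). Psmb10 was at 9.71, 14.3 and 8.78 CPM in mutants and 102, 85.1 and 80.1 CPM in controls. Every mutant was below every control by a wide margin. Its means were 10.9 ± 2.94 CPM in mutants and 89.0 ± 11.4 CPM in controls (SD, n = 3 each), 8.18-fold lower (edgeR log2 fold change -3.03 ± 0.18 SE, adjusted p = 2.04e-05). Over 14 alternatives the log2 fold change of Psmb10 lay between -3.25 and -2.86. On the other side, 192 bp away, Pskh1, a serine kinase gene, was at 28.4, 23.8 and 26.4 CPM in mutants and 26.5, 32.6 and 33.3 CPM in controls, with overlap (-0.24 ± 0.12 SE, edgeR adjusted p = 0.470). Nrn1l and Lcat, the next genes out, were below 1 CPM in every library and were not tested.

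**Figure D4:**
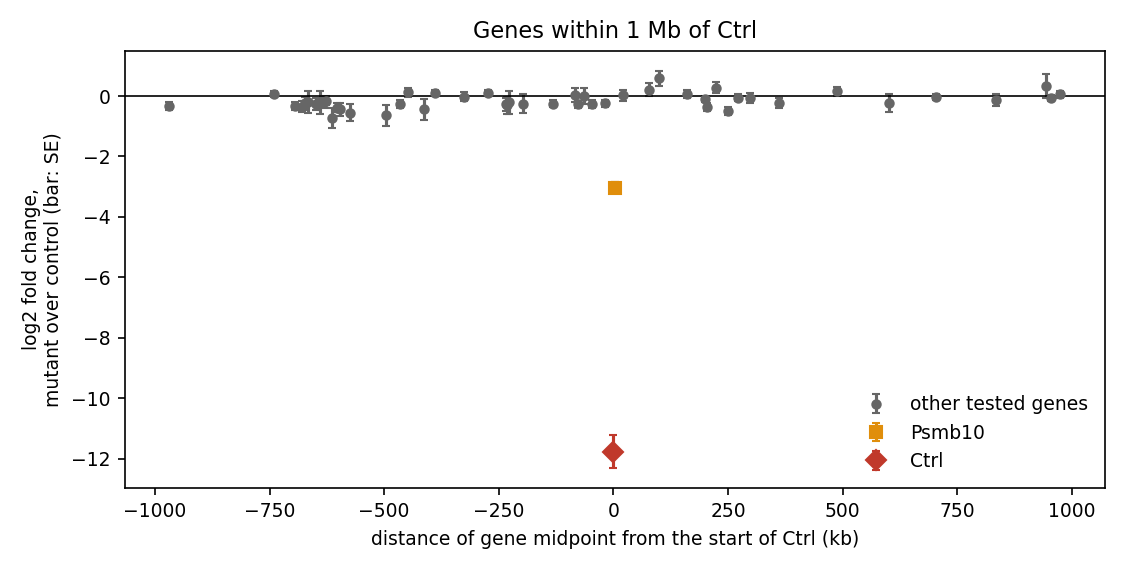
Log2 fold change of mutant over control for genes tested within 1 Mb of Ctrl, against distance from the start of Ctrl, with positive distance towards higher coordinates, which is upstream of Ctrl. Ctrl at -11.76 and Psmb10 at -3.03 stand below the other genes plotted.

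The genes whose pattern over the 6 libraries was most like that of each member were found by the root mean square difference of log2 CPM centred on each gene's mean over all libraries. For Ctrl they were Gm5771, Gp2 and Zg16, at a distance of 3.18, 3.18 and 3.59. Gp2, a glycoprotein anchored in zymogen granule membranes, was at 9.14, 13.7 and 12.2 CPM in mutants and 459, 636 and 795 CPM in controls (log2 fold change -5.76 ± 0.25 SE). The granule lectin gene Zg16 was at 60.6, 60.9 and 139 CPM in mutants and 2598, 2388 and 2254 CPM in controls (-4.79 ± 0.33 SE). In both, every mutant was below every control. Gm5771, a trypsinogen-like gene with similar copies, was at 5.71, 10.9 and 8.88 CPM in mutants and 97.7, 4187 and 4443 CPM in controls. Control 1 stood apart from the other controls in Gm5771, unlike in Ctrl, and the log2 fold change was -8.42 ± 1.22 SE with control 1 and -9.00 ± 0.25 SE without it. For the other members the nearest gene was Sap18 for Ctrb1 (0.0190), Upb1 for Ctrc (0.199), Gnmt for Cela1 (0.0393), Ppp1r7 for Cela2a (0.0265) and Cbs for Cela3b (0.0402). All of these genes were picked for their pattern over the same libraries, so their values describe that pattern and no test is given.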

How the data were processed

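Whole-pancreas RNA of 3 mutant and 3 control samples was measured, with groups and replicate numbers from the titles. The deposited values are whole-number counts per gene symbol, and the submitters' processing notes name STAR, HTSeq 0.6.1p1, cutadapt 1.13, DESeq2 and mm10, with no role or order. Not given in the sources used here are the annotation, the strand setting and the handling of multiply matching reads, so reads of near-identical or antisense genes cannot be separated.

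Mutant was compared with control by edgeR 4.0.16 (R 4.3.3; glmQLFTest, TMM scaling, default filterByExpr). Benjamini-Hochberg adjustment ran over all 13017 genes, with a threshold of 0.05. Each standard error is the size of the log2 fold change over the square root of F. CPM use TMM-scaled library sizes. Single values per library were compared by two-sided exact permutation tests (scipy 1.17.1). At these depths 1 CPM is 7 to 11 counts. Libraries of a group differed by a chi-square of 5.83 to 20.5 per degree of freedom, so none was the same library sequenced again. This value cannot tell whether they came from separate RNA or pools. Only the edgeR step was tested on simulated data, with changes smaller than that of Ctrl and in genes below the level of most members.

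The genes named were the 6 members, Prox1, Ptf1a, neighbouring genes, fixed companions, the called genes of each companion list with the 5 smallest adjusted p, and the nearest patterns. Prss1, Try4 and some marker genes were named in addition for their values. Members and lists were chosen with earlier results of these data known. Positions and transcripts came from GENCODE M21 and RefSeq on GRCm38, the assembly mm10 denotes. 5 of the 6 members had a RefSeq promoter entry, Ctrc being the other. Alternatives were RLE factors, library totals alone, scaling without digestive enzymes, DESeq2 1.42.0, other filters, a robust dispersion, a replicate block and leaving out each library.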

Additional observations from a re-analysis of the deposited data

How the results depend on the processing

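Ctrl kept its direction and its call under all 14 alternatives, and Cela1 and Cela3b kept their direction. Of 136 alternative values of differences and ratios that answer a comparison, 119 kept their direction and their side of the threshold. The summed shares and ratios among them were tested by exact permutation, which could not reach 0.05 here, so only their direction could change. Of 84 alternative counts of called genes, 65 stayed within 1.5 times the count reported. With library totals alone, the median of all genes moved by 0.17 on the log2 scale, 190 genes were higher and 130 lower, and 59.4% of calls were higher against 26.5% with TMM. In that setting the log2 fold change of Ctrc was 1.17 (called), Cela2a 0.13, Cpa1 0.00, Spink3 0.05, Nr5a2 0.07, Sap18 0.14 and Ppp1r7 0.13, the last 6 turning sign. Ctrc was also called at 1.02 without a filter, with a filter at 5 CPM and under the replicate block (edgeR adjusted p = 0.0138, the smallest over all alternatives). Thus 1 member was higher in each of these settings and with library totals alone. With a robust dispersion Ctrc, at 1.02, was not called (edgeR adjusted p = 0.1). DESeq2 called Cela3b (-0.39), which made 2 members lower, and 16 companion genes lower.

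Leaving out 1 library gave log2 fold changes of -0.06 to 0.10 for Ctrb1, 0.79 to 1.21 for Ctrc, -0.11 to 0.11 for Cela2a, -0.10 to 0.35 for Prss2, -0.20 to 0.03 for Spink3, -0.08 to 0.08 for Sap18 and -0.12 to 0.12 for Ppp1r7. It left 0 to 1 member higher, 27 to 99 genes higher, 98 to 202 genes lower and 4 to 9 companion genes lower. The fewest calls came without control 2, with 27 higher and 98 lower. The ratio of Cela1 to the other 5 ranged from -0.206 to 0.0486, and the summed share difference from -0.0321 to 1.32 points. That difference was -18473 as summed CPM and -1.80 per 100 counts outside digestive enzyme genes.

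Same-numbered libraries correlated at 0.08, 0.029 and -0.071 in their deviations from the group means, so the numbers do not pair the samples. With the replicate block Ctrb1 had -0.00, 53 genes were higher and 188 lower, and the summed share differed by 0.492 points. The causes of these changes were not tested. Depth limits Ctrl in mutants, where 20 to 73 counts carry its level, and 3 libraries a group limit the rest.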

Other observations

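Within 1 Mb of each locus, a range chosen after the values were seen, 50 genes were tested around Ctrl, with 0 higher and 1 lower (Psmb10), a share of 2.0% called and a median log2 fold change of -0.21. At an unadjusted p under 0.05, 1 was higher and 7 lower there, and DESeq2 called 0 higher and 1 lower. Around Ctrb1 and around Cela1, 27 genes each were tested, and edgeR and DESeq2 called 0, with 0 higher and 2 lower around Ctrb1 and 0 higher and 1 lower around Cela1 at an unadjusted p under 0.05. Around Cela3b, 20 genes were tested, with 1 higher and 3 lower by edgeR and by DESeq2, or 20% called against 2.06% of all genes, and 2 higher and 8 lower unadjusted. Of these, C1qc, a complement subunit made by macrophages, rose to 31.2, 29.9 and 26.4 CPM in mutants, against 17.3, 21.9 and 19.1 CPM in controls (log2 fold change 0.58, edgeR adjusted p = 0.0419). C1qa, a subunit of the same complex, fell to 35.1, 36.7 and 28.5 CPM in mutants, against 68.3, 62.8 and 45.2 CPM in controls (-0.81, edgeR adjusted p = 0.0313). The groups did not overlap for either. C1qb, the other subunit, was at 21.0, 27.6 and 15.7 CPM in mutants and 15.2, 16.8 and 13.4 CPM in controls, with overlap (0.50, edgeR adjusted p = 0.310), and the median of the 5 macrophage markers was 0.53. Epha8, an ephrin receptor (-3.55), and Zbtb40, a zinc finger gene (-0.88), both had an edgeR adjusted p of 0.0152 and were lower, Epha8 being below 2 CPM in all libraries. Around Ctrc and around Cela2a, whose ranges largely coincide, 25 genes each were tested, with 0 higher and 2 lower (8.0%) by edgeR and by DESeq2, and 1 or 2 higher and 3 lower unadjusted. Arhgef19, an exchange factor of small GTPases, averaged 5.22 ± 0.434 CPM in mutants and 9.50 ± 1.32 CPM in controls (SD, n = 3 each; log2 fold change -0.85, edgeR adjusted p = 0.0359). Padi2, a protein deiminase, was at 31.6, 36.9 and 40.8 CPM in mutants and 71.6, 77.7 and 79.9 CPM in controls (-1.07, edgeR adjusted p = 0.000792). These genes were named after their values were seen.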
